A study of Mus musculus with 10 samples.

Results

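The interferon regulatory factors are a family of transcription factors, and 8 of them were followed here in microglia: Irf1, Irf2, Irf3, Irf4, Irf5, Irf7, Irf8 and Irf9. They were taken by gene name from the deposited count table, which lists 40789 genes, and all 8 were found and passed the filter on low counts. The study sorted microglia, the resident macrophages of the brain, from the cortex of female C57BL6/J mice aged 2 to 3 months. It compared 5 animals injected intraperitoneally with lipopolysaccharide (LPS) at 4 mg/kg with 5 injected with saline, 24 hours after the injection. LPS is a glycolipid of the outer membrane of bacteria that is sensed by the receptor Tlr4. Every animal of both groups was CX3CR1+/egfp, so that a fluorescent protein stood in for 1 copy of the fractalkine receptor gene and the sort took brightly fluorescent cells, which can include other cells that use this gene's promoter. Each library came from 1 mouse.

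All members of the family bind DNA through a conserved tryptophan-rich domain at the amino terminus that recognises the core GAAA, which occurs in repeats in interferon-stimulated response elements. Irf3, Irf5 and Irf7 lie dormant in the cytoplasm until kinases below pattern receptors phosphorylate them, whereupon they enter the nucleus and switch on interferon and cytokine genes. Interferon then acts back on the cell through Irf9, the DNA-binding subunit of a complex with Stat2 that raises antiviral genes. Irf1 and Irf2 compete for the same elements as activator and mainly repressor, and Irf8 and Irf4 pair with the ETS factor PU.1 (gene Spi1) in myeloid and lymphoid cells. Irf8 is required for microglia to develop.

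Promoter sequence is shown for 4 members whose transcripts differed in behaviour: Irf1 and Irf7, which rose, and Irf2 and Irf8, which did not pass the test. RefSeq promoter windows on GRCm38, from 250 bases before to 50 after each annotated start, were matched for 8 of 8 members. Each run below is written 5′ to 3′ on the gene's own strand and holds the bases before all its annotated starts. Capitals mark matches, on either strand, to the gamma-activated site TTCNNNGAA, to the IRF element (GAAA, any 2 bases, GAAA), or to the ETS-IRF composite (GGAA, any 2 bases, GAAA). The Irf1 run lies at chr11:53769764-53770013 on the plus strand, that of Irf2 at chr8:46739495-46739731 plus, that of Irf8 at chr8:120736108-120736357 plus, and that of Irf7 at chr7:141266500-141266674 on the minus strand.
Irf1: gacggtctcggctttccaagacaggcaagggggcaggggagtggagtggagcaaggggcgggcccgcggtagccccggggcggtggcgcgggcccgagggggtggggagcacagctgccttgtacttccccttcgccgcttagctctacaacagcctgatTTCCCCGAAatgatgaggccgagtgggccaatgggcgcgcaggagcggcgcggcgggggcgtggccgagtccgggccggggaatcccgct
Irf2: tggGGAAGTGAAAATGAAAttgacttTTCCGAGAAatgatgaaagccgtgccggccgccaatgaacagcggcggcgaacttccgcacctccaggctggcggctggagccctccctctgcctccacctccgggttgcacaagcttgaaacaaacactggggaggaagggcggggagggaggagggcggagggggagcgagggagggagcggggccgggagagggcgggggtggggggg
Irf8: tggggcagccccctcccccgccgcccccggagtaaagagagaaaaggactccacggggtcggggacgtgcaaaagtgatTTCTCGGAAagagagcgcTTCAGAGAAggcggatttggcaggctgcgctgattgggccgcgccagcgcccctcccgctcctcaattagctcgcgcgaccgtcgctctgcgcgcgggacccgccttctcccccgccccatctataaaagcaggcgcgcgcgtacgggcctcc
Irf7: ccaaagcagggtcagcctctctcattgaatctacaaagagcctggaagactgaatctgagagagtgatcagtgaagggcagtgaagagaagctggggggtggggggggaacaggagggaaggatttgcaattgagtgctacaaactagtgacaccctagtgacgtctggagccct

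The Irf1 window held 1 gamma-activated match, TTCCCCGAA, whose first base lay 90 bases before the start. The Irf2 window held an IRF element, GAAAATGAAA, 241 bases before its start, which overlapped the composite match GGAAGTGAAA that begins 247 bases before it. It also held a gamma-activated match, TTCCGAGAA, 224 bases before the start. In the Irf8 window the gamma-activated letters occurred at 171 bases (TTCTCGGAA) and 153 bases (TTCAGAGAA) before the start. The 3 patterns were not found in the windows of Irf3, Irf4, Irf5, Irf7 and Irf9, which says only that these letters are not in those windows. Over 32851 mouse promoter windows of the same length, 3.44% held the IRF element, 2.72% the composite and 8.3% the gamma-activated letters. A match is a string of letters and was not shown to be bound.

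Of the 8 members, 4 rose after LPS, 1 fell and 3 did not pass the test, against a background of 45.0% of 13793 tested genes called in either direction, 22.4% higher and 22.5% lower. The call used edgeR's quasi-likelihood F test with an adjusted p of at most 0.05 over all tested genes. Irf7, Irf1, Irf9 and Irf3 were the members that rose and Irf4 the one that fell. Irf2, Irf5 and Irf8 were not called. The 2 groups of mice did not overlap for 5 members, beside 29.8% of all tested genes: 4 with LPS higher, beside 14.1%, and 1 with LPS lower, beside 15.7%. The median log2 fold change of the 8 members was 0.35, and that of all tested genes was 0.00.

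**Figure D1:**
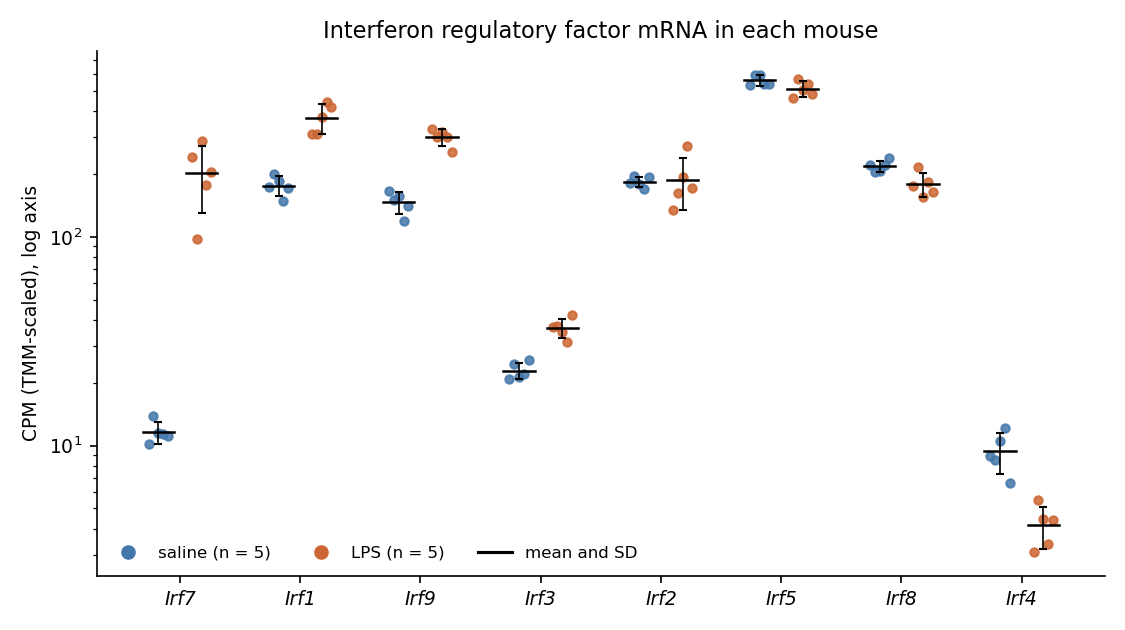
Level of each member in each mouse, in CPM after TMM scaling on a log axis; points are mice, lines are the mean and bars the SD of 5 mice per group. The LPS mice lie wholly above the saline mice for Irf7, Irf1, Irf9 and Irf3 and wholly below them for Irf4, while the groups overlap for Irf2, Irf5 and Irf8.

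Irf7, the factor that amplifies type I interferon and is itself a target of interferon, changed most. Its locus is on chromosome 7 at chr7:141263183-141266499 of GRCm38, minus strand (Entrez gene 54123). Saline mice 1 to 5 held 10.1, 13.9, 11.5, 11.4 and 11.1 CPM, a count divided by the size of its library after TMM scaling, and LPS mice 1 to 5 held 240.3, 97.8, 288, 178 and 204. The lowest LPS mouse, number 2 of its group, still stood far above every saline mouse. The means were 11.6 ± 1.39 and 202 ± 71.2 CPM (SD, n = 5 each), a 17.4-fold difference and a log2 fold change of 4.12 ± 0.28 (SE; edgeR adjusted p = 7.23e-08). This was rank 88 among the rises of all 13793 tested genes. The coefficient of variation was 12.01% in saline and 35.3% in LPS, a difference that was not tested. In these sorted pools, fewer cells of a type and less RNA per cell cannot be told apart, for this and every later value.

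The summed level of monocyte markers was also higher in LPS mice, and was highest and lowest in the same animals as Irf7, LPS mice 3 and 2, while LPS mice 1 and 5 stood in the opposite order. The 10 listed markers together came to 144, 78.1, 219.9, 127 and 192 CPM in LPS mice 1 to 5 and to between 14.4 and 22.8 CPM in saline mice. Over all mice Ms4a4c and Fn1 were the most abundant, although in saline Ccr2 was. Of the 6 that were tested 3 rose and 2 fell, beside 22.4% higher and 22.5% lower over all tested genes. Ly6c2, which marks blood monocytes, was at 0 in saline and had 16 counts over the 5 LPS libraries. The monocyte receptor gene Ccr2 fell from 10.2 to 2.45 CPM. The part of such cells in the level of Irf7 was not tested.

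Irf3 is the constitutive partner of Irf7, kept ready as protein in most cells and switched on by the kinases Tbk1 and Ikbke. It lies at chr7:44997648-45002848, plus strand (Entrez gene 54131). Saline mice held 20.75, 24.6, 21.4, 21.9 and 25.6 CPM and LPS mice 36.8, 37.5, 35.1, 31.3 and 42.2 CPM. All LPS mice were above all saline mice, by a modest margin. The means, 22.9 ± 2.11 and 36.6 ± 3.95 CPM, differed 1.60-fold (log2 0.68 ± 0.09 SE; edgeR adjusted p = 0.00104). Bcl2l12, whose span ends 9 bases before Irf3 on the opposite strand, rose as well, 1.81-fold (log2 0.85 ± 0.20; edgeR adjusted p = 0.00351). Reads near the boundary of the pair cannot be assigned with certainty, since the strand setting of the counting was not given in the sources used here. Scaf1, 97 bases after Irf3 and also on the opposite strand, was not called (adjusted p = 0.3).

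Irf5, which carries signals from Myd88 to inflammatory cytokine genes in macrophages, did not pass the test. Its span is chr6:29526130-29541869, plus strand (Entrez gene 27056). The saline mice held 533, 597, 599, 539 and 541 CPM and the LPS mice 462, 569.9, 506, 543 and 483.5 CPM. The groups overlapped, with LPS mice 2 and 4 inside the saline range. The means were 562 ± 33.2 and 513 ± 43.7 CPM (log2 -0.13 ± 0.07 SE; edgeR adjusted p = 0.386). The last 1043 bases of its span overlap Tnpo3, a nuclear import gene on the opposite strand that was 1.70-fold lower in LPS (edgeR adjusted p = 0.00298), so shared reads could enter either gene.

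Irf1, the activator, rose and its competitor Irf2 was not called, a difference between the 2 genes that was not tested. Irf1 (chr11:53770014-53778374, plus strand, Entrez gene 16362) is induced by interferon gamma and drives antigen presentation and guanylate-binding genes. Its level was 173, 201, 185, 148 and 171 CPM in saline mice and 312, 309.5, 373, 441 and 419 CPM in LPS mice. Every LPS mouse exceeded every saline mouse, and LPS mice 4 and 5 were the highest. The means rose from 176 ± 19.4 to 371 ± 60.3 CPM, or 2.11-fold (log2 1.08 ± 0.13 SE; edgeR adjusted p = 4.92e-05).

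Irf2 (chr8:46739745-46847458, plus strand, Entrez gene 16363) was at 180.5, 195, 179.6, 169 and 194 CPM in saline and at 135, 163, 193, 271 and 172 CPM in LPS. The saline mice were close together, whereas the LPS mice stood on both sides of them, with LPS mouse 1 lowest and LPS mouse 4 highest. The means were 183.5 ± 10.9 and 187 ± 51.6 CPM (log2 0.03 ± 0.17 SE; edgeR adjusted p = 0.908). The coefficient of variation was 5.96% in saline and 27.6% in LPS. Without LPS mouse 4 the log2 value was -0.15, and its sign also turned in other alternatives, so no direction is read from it. LPS mouse 4 also had the lowest summed level of the 12 microglial markers, 17900 CPM, and the highest sum of 9 neutrophil markers, 32.4 CPM. The other LPS mice held 22990 to 39650 CPM of the former and 2.01 to 21.8 CPM of the latter, and the saline mice 65780 to 75400 and 0.162 to 1.12 CPM. Of the 9 neutrophil markers, Cxcr2 was the 1 with counts enough to test, and it rose. Ly6g had 0 counts in saline and 4 over the LPS libraries, and Retnlg 0 and 64. Camp had 3 and 6 counts, and Ltf 1 and 2. The rest had more counts in LPS: S100a8 had 1 and 244, Mmp8 5 and 174, Ngp 18 and 102, and S100a9 1 and 57. For Retnlg, Ngp and S100a9 most LPS counts came from 1 library (64, 90 and 56). The part of these cells in the values of Irf1 and Irf2 was not tested.

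Measured per transcript length in the same mouse, Irf1 stood below Irf2 in all 5 saline mice and above it in all 5 LPS mice. In the authors' RPKM values, which scale reads by transcript length and library size, the ratio of Irf1 to Irf2 was 0.834 in the median saline mouse (0.764 to 0.898) and 1.68 in the median LPS mouse (1.42 to 2.12). These ratios repeat the rise of Irf1 beside a nearly level mean of Irf2 and are given without a test.

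Irf9 (chr14:55603985-55610030, plus strand, Entrez gene 16391) gives the complex with Stat2 its DNA specificity. Saline mice held 167, 151, 157, 119.7 and 141 CPM and LPS mice 328, 300.4, 318.5, 302 and 254 CPM. The groups were far apart and the LPS mice close to each other. The means of 147 ± 17.9 and 300.4 ± 28.5 CPM differed 2.04-fold (log2 1.03 ± 0.10 SE; edgeR adjusted p = 3.44e-05). Unlike for Irf7 and Irf1, the coefficient of variation was not larger in LPS, at 9.49% against 12.2% in saline, which was not tested. Rnf31, a ubiquitin ligase gene that ends 310 bases before Irf9 on the same strand, rose 1.66-fold (log2 0.73 ± 0.12; edgeR adjusted p = 0.00143).

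Irf8 and Irf4 are close relatives that bind with PU.1. Irf8 (chr8:120736358-120756694, plus strand, Entrez gene 15900) sustains the identity of microglia and other myeloid cells. It was at 222, 204, 207.5, 221 and 238 CPM in saline mice and at 175, 216, 155, 183 and 165 CPM in LPS mice. LPS mouse 2 fell within the saline range, and the other 4 LPS mice were below it. The means were 218 ± 13.4 and 179 ± 23.5 CPM (log2 -0.29 ± 0.09 SE; edgeR adjusted p = 0.0767). Without LPS mouse 2 the log2 value was -0.36 and passed (adjusted p = 0.0353), and it also passed when libraries were scaled by their size alone (log2 -0.37, adjusted p = 0.0389). LPS mouse 2 had the most Irf8 and the least Irf7 of its group, and LPS mouse 3 the least Irf8 and the most Irf7.

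Irf4 (chr13:30749233-30766981, plus strand, Entrez gene 16364) acts in B cells, dendritic cells and alternatively activated macrophages, and competes with Irf5 for Myd88. Saline mice held 8.96, 8.57, 10.5, 12.2 and 6.62 CPM and LPS mice 3.10, 5.45, 4.425, 3.36 and 4.38 CPM. The highest LPS mouse was just below the lowest saline mouse. Irf4 fell 2.26-fold, from 9.36 ± 2.09 to 4.14 ± 0.945 CPM (log2 -1.18 ± 0.20 SE; edgeR adjusted p = 0.00124). This rests on 655 counts over the 5 saline libraries and 274 over the 5 LPS libraries. On the scale of log2(RPKM + 1), which compresses low levels, the difference was -0.64 and passed (limma adjusted p = 0.00264).

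Other cells that make Irf4 were looked for by their markers. Among 8 B cell genes, Pax5, Blk and Mzb1 were at 0 in all libraries, and Cd79a had 10 counts in saline and 18 in LPS. The B cell sum, 75.4 to 110.0 CPM in saline and 73.5 to 143 CPM in LPS, was nearly all Cd79b, which was not called. The sum of 7 dendritic cell genes was 21.9 to 29.1 CPM in saline and 8.22 to 20.8 CPM in LPS. Of 4 tested, 1 fell, beside 22.5% of all tested genes called lower. This was Itgae, from 13.2 to 5.21 CPM, while Flt3, Zbtb46 and Xcr1 were not called. Of those with too few counts to test, Cd209a had 26 counts in saline and 0 in LPS, Clec9a had 3 and 1, and Ccr7 had 7 and 37. The part of dendritic cells in the fall of Irf4 was not tested.

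Levels between genes were compared per transcript length in the authors' RPKM values. In saline the order was Irf5 (median 173.6, range 167 to 193 RPKM), Irf8 (61.8), Irf2 (61.7), Irf9 (56.2), Irf1 (50.9), Irf3 (9.26), Irf7 (5.74) and Irf4 (1.84). Irf8, Irf2, Irf9 and Irf1 were neighbours whose ranges overlapped, whereas Irf5 stood above all others and Irf3, Irf7 and Irf4 stood apart below. In LPS the order became Irf5 (164), Irf9 (114), Irf1 (112), Irf7 (108, range 51.7 to 149.9), Irf2 (59.8), Irf8 (51.9), Irf3 (16.1) and Irf4 (0.93). Irf5 was first and Irf4 last in both groups. From Irf9 down to Irf8 each neighbour overlapped the next, so the places of Irf9, Irf1 and Irf7 are not separable by their ranges.

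**Figure D2:**
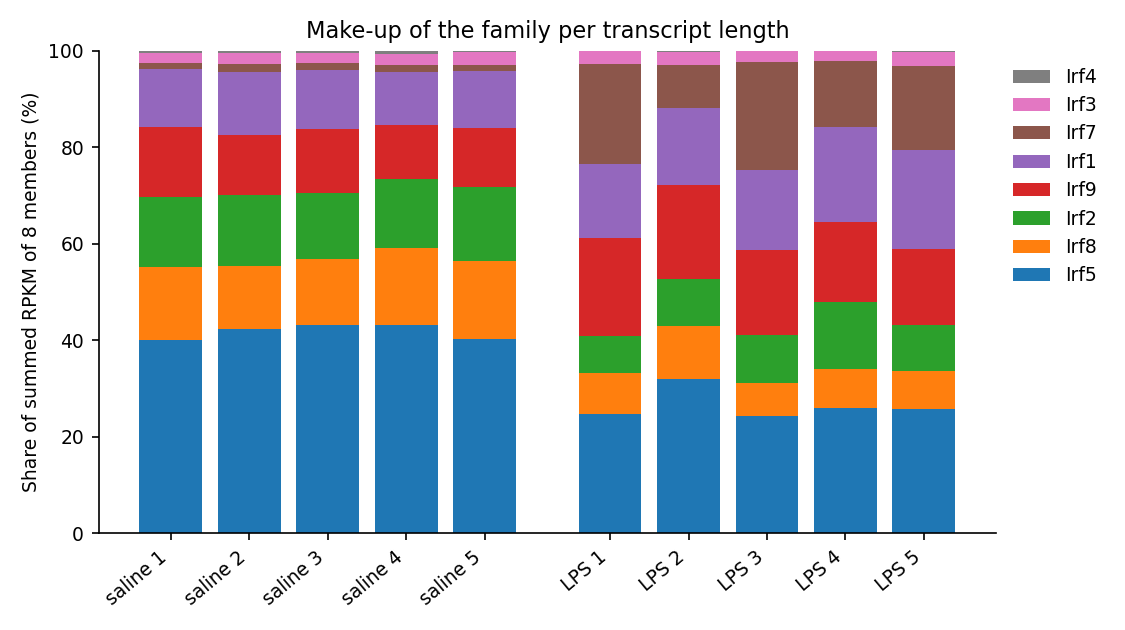
Share of each member in the summed RPKM of all 8 members, in percent, with 1 stacked bar for each mouse. The band of Irf7 is a thin strip of 1.23% to 1.59% in saline mice and takes 8.82% to 22.3% in LPS mice, and that of Irf5 narrows from 40.1% or more to 31.9% or less.

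The shares that the members took of the family's summed level differed between the groups. Irf5 gave 42.3% of the summed RPKM in the median saline mouse (40.1% to 43.2%) and 25.6% in the median LPS mouse (24.3% to 31.9%), although its own level was not called as changed. Irf7 went from 1.33% to 17.4%, Irf9 from 12.4% to 17.7% and Irf1 from 12.1% to 16.6%. Irf8 went from 15.1% to 7.95% and Irf2 from 14.5% to 9.71%. The summed RPKM of the 8 members was 430.4 (386 to 454) in saline and 617 (585.8 to 672.9) in LPS, and the shares of 1 mouse always add up to the whole. Irf7 was below Irf3 per length in every saline mouse (ratio 0.521 to 0.679) and above it in every LPS mouse (3.13 to 9.85). Irf8 exceeded Irf4 in all mice, 25.3 to 50.1 times in saline and 48.9 to 78.6 times in LPS.

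Mouse numbers in the labels fall into 3 separate ranges, each with mice of both groups. The labels do not call these batches. The difference in mean log2 CPM within the ranges was 3.67, 4.64 and 4.08 for Irf7 and 0.74, 1.17 and 1.33 for Irf1. It was 0.98, 1.22 and 0.97 for Irf9, 0.71, 0.69 and 0.51 for Irf3, and -1.06, -1.32 and -0.76 for Irf4. The direction of the 5 called members was thus the same in every range. Irf8 was lower in all 3 ranges (-0.13, -0.46 and -0.45), and Irf2 was lower in the first and higher in the others (-0.34, 0.15 and 0.15).

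Transcript length moved with the contrast over all genes: the median log2 fold change fell from 0.70 in the shortest to -0.46 in the longest of 5 equal groups of genes. The members lay between Irf7, with 27.3% of 13199 genes shorter, and Irf4, with 72.4% shorter. With this trend removed from each library, Irf7 was at 3.81, Irf1 at 1.18, Irf9 at 0.96, Irf3 at 0.50 and Irf4 at -0.87 on the log2 scale. All 5 passed the test in that fit, with edgeR adjusted p values from 9.08e-08 for Irf7 to 0.008 for Irf4.

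**Figure D3:**
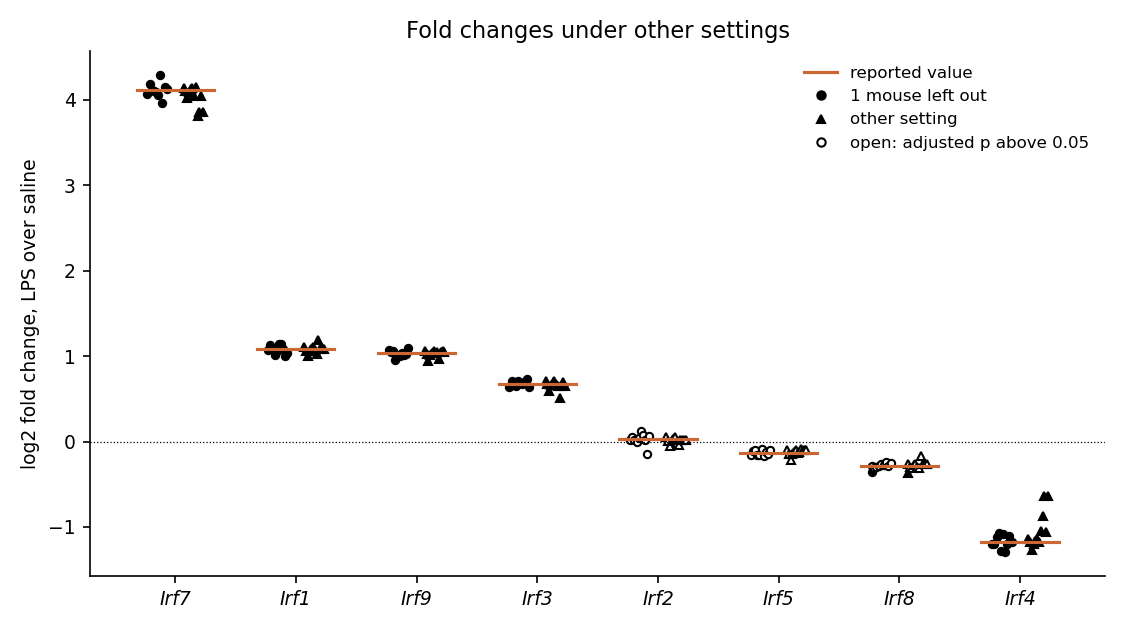
Log2 fold change of each member, LPS over saline, under 22 other settings: circles leave out 1 mouse, triangles change the scaling, filter, test or unit, and open symbols have an adjusted p above 0.05; the line is the reported value. Irf7, Irf1, Irf9, Irf3 and Irf4 stay filled in every setting, Irf2 scatters on both sides of 0, and Irf8 is filled in 2 settings.

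Genes around the family were taken from lists of their partners, activators, brakes, receptors and targets. Of 9 proteins that share DNA sites with the family, 8 were tested, 4 rose and 1 fell, beside 22.4% higher and 22.5% lower over all tested genes, with a median log2 fold change of 0.65. Stat2, the partner of Irf9, rose 3.27-fold from 37.1 ± 5.68 to 121 ± 32.8 CPM (edgeR adjusted p = 1.04e-05). With the length trend removed 4 rose and 2 fell. Batf and Batf2, AP-1 family proteins that pair with Irf4 and Irf8, rose 3.90-fold (adjusted p = 3.42e-06) and 3.79-fold (adjusted p = 0.000221). Spi1, which encodes PU.1, was at 27.4 ± 4.0 CPM in saline and 33.9 ± 5.62 CPM in LPS and was not called (adjusted p = 0.116). Ets1 fell 5.45-fold, from 310.3 ± 60.0 to 57.0 ± 16.8 CPM (edgeR adjusted p = 2.12e-06). Ets1 is also made by endothelial cells, and the sum of 6 endothelial markers was 49.3 to 73.0 CPM in saline and 4.85 to 10.8 CPM in LPS. This sum was nearly all Pecam1, the one with counts enough to test, which fell from 54.1 to 7.05 CPM. Flt1 was at 0.83 CPM in saline and 0.22 in LPS, and Cdh5 at 0.74 and 0.39. Tek had 1 count in saline and 2 in LPS, Slco1a4 had 4 and 0, and Cldn5 was at 0 throughout. The part of endothelial cells in the fall of Ets1 was not tested.

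Of 26 sensors, adaptors and kinases that lead to phosphorylated Irf3, Irf5 or Irf7, 25 were tested, 6 rose and 5 fell, and the median was 0.12. This is close to the 22.4% higher and 22.5% lower of all tested genes and so is no result about the list. With the length trend removed 10 rose and 2 fell. Zbp1, a nucleic acid sensor, rose 54.8-fold from 1.36 to 74.4 CPM (edgeR adjusted p = 7.72e-08), and Ikbke, a kinase of Irf3 and Irf7, rose 7.62-fold from 0.948 to 7.22 CPM (edgeR adjusted p = 3.1e-05). Myd88, the adaptor upstream of Irf5 and Irf7, rose 2.23-fold from 119 ± 6.64 to 265 ± 52.8 CPM (edgeR adjusted p = 3.52e-05). Tank, a scaffold of these kinases, rose 2.23-fold as well (adjusted p = 8.63e-05). Among those that fell, the LPS receptor gene Tlr4 went from 143 ± 33.3 to 92.0 ± 9.01 CPM (edgeR adjusted p = 0.00513) and the double-stranded RNA receptor gene Tlr3 from 123 ± 15.2 to 89.3 ± 8.49 CPM (edgeR adjusted p = 0.0104). With the length trend removed Tlr3 was at -0.07 and was not called (adjusted p = 0.675). The calls of Tbk1, Traf6 and Ikbkb, all lower, were lost in several of the leave-one-mouse-out fits, and for Tbk1 in most of them. They were also lost with mouse-number range as a term (edgeR adjusted p = 0.0809, 0.0585 and 0.0613). With the length trend removed Traf6 and Ikbkb were not called either (edgeR adjusted p = 0.385 and 0.214).

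Of 11 proteins that bind or restrain family members or their signalling, 10 were tested, 2 rose and none fell, and the median was 0.34. The share that rose is close to the 22.4% of all tested genes called higher, beside 22.5% called lower. Without LPS mouse 4, 3 rose and 1 fell. Usp18, which blocks the interferon receptor and is also counted among the response-element genes, rose 11.8-fold from 29.8 ± 4.63 to 352 ± 167 CPM (edgeR adjusted p = 4.48e-07).

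Interferon transcripts themselves were scarce. Ifna4 and Ifng had 0 counts in all libraries, and Ifnb1 had 18 counts over the saline libraries and 33 over the LPS libraries, too few to be tested. Of the 10 interferon, receptor and JAK kinase genes 7 were tested. Of these, 1 rose, 1 fell and 5 were not called, beside 22.4% higher and 22.5% lower over all tested genes. The type I interferon receptor genes Ifnar1 and Ifnar2 were not called (edgeR adjusted p = 0.718 and 0.904), nor were Ifngr2, Jak2 and Tyk2. Ifngr1, a chain of the interferon gamma receptor, rose 1.42-fold from 2421 ± 204 to 3431 ± 169.9 CPM (edgeR adjusted p = 0.00378), and Jak1 fell from 195 to 151 CPM (edgeR adjusted p = 0.0467). With the length trend removed neither passed (adjusted p = 0.0761 and 0.843). Jak1 also lost its call with RLE factors (adjusted p = 0.0576), with no filter (adjusted p = 0.0758) and in 7 of 10 fits that left out 1 mouse.

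Known target genes were higher as well. All 23 of 23 listed genes with interferon-stimulated response elements rose, beside 22.4% of all tested genes called higher. Their median log2 fold change was 3.10, beside 0.00 for all tested genes. Ifit2 among them was no longer called in 12 of 22 alternatives. Such genes were part of what was already known of these data, so the count is not independent evidence. Rtp4, a chaperone of membrane receptors, rose 14.6-fold from 54.8 ± 8.93 to 798 ± 250 CPM (edgeR adjusted p = 7.59e-08). Ifitm3, which blocks viral entry, rose 31.2-fold (edgeR adjusted p = 2.83e-07), and Oasl2, of the oligoadenylate synthetase family, 23.1-fold (edgeR adjusted p = 3.49e-07). The summed level of the 23 genes was 336 to 435 CPM in saline mice and 4246, 1759, 4115, 2264 and 4185 CPM in LPS mice 1 to 5. LPS mouse 2 was thus lowest both in this sum and in Irf7. Of the 16 listed genes with a promoter window, 10 held the IRF element, against 3.99% of all 27025 genes with a window. Genes were put on that list partly for their known elements.

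**Figure D4:**
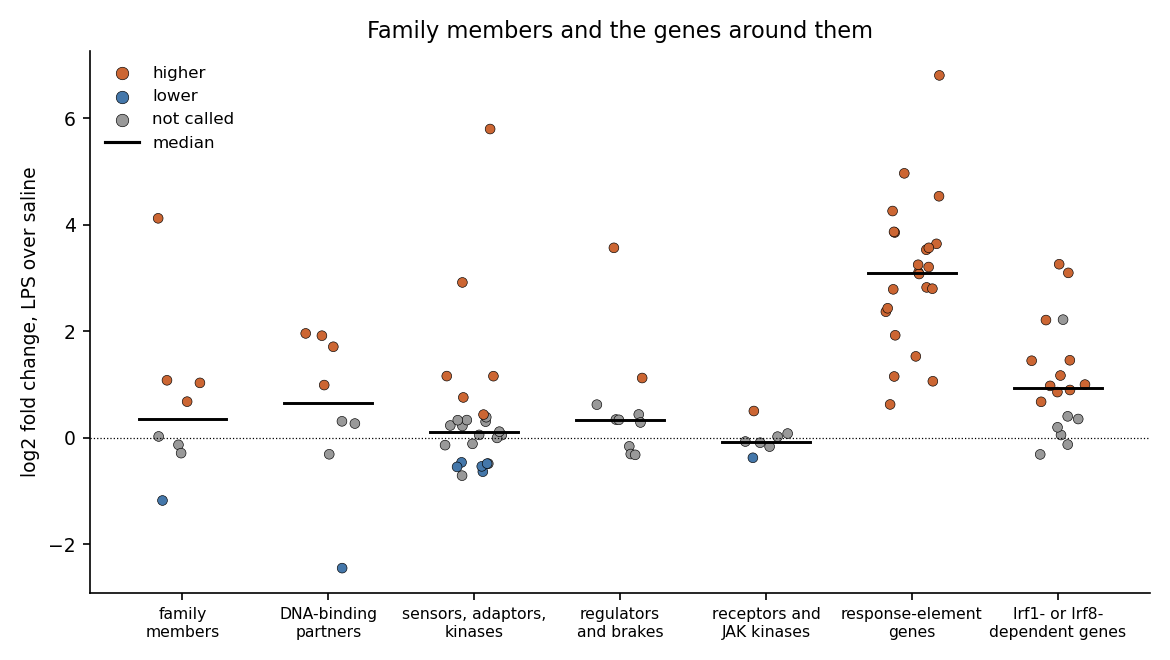
Log2 fold change, LPS over saline, of the 8 members and of the tested genes of 6 lists around them; points are genes, filled by call, and bars are medians. The response-element genes all lie above 0 with a median of 3.10, while the sensors, adaptors and kinases lie on both sides of 0 with a median of 0.12.

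Of 22 genes known to depend on Irf1 or Irf8, 18 were tested, 11 rose and none fell, with a median log2 fold change of 0.94, beside 22.4% higher and 22.5% lower among all tested genes. Nlrc5, the activator of MHC class I genes, rose 8.49-fold from 4.50 to 38.3 CPM (edgeR adjusted p = 3.28e-06). Gbp2, a guanylate-binding protein gene, rose 4.62-fold from 17.98 to 83.1 CPM (edgeR adjusted p = 1.5e-05). B2m, the light chain of MHC class I, rose 2.73-fold from 3460 ± 711 to 9431 ± 2079 CPM (edgeR adjusted p = 4.19e-05), and the peptide transporter gene Tap1 rose 2.74-fold (edgeR adjusted p = 4.56e-05). Nos2, Ciita, Il12a and Ptgs2 had too few counts to be tested. With the length trend removed 9 rose and 1 fell, and Psmb8 and Psmb9 were no longer called (log2 0.33 and 0.06, adjusted p = 0.0716 and 0.761).

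The genes whose levels ran most like each member were ranked by Pearson's r of log2 CPM over the 10 libraries, among 8211 tested genes that averaged 10 CPM or more. These r are descriptions, share their libraries and mostly carry the difference between the 2 groups, so r with the group means removed is given beside them. For Irf7 they were Slfn5 (r = 0.997, 0.924 within groups), Zbp1 (0.996, 0.896) and Rtp4 (0.995, 0.858). For Irf1 they were Ms4a4a (0.994, 0.942), Plet1 (0.992, 0.929) and Dram2 (0.99, 0.905). Igtp, an interferon-induced GTPase gene, came first for Irf9 (0.983, 0.744) and Mmp14, a membrane metalloproteinase gene, for Irf3 (0.987, 0.913). For Irf4 they began with the uncharacterised LOC105243585 (0.979, 0.913) and Sfxn4 (0.972, 0.854). For the members that were not called the first genes were Sh2b3 for Irf2 (0.938, 0.938), Nlrp3 for Irf5 (0.927, 0.891) and Khdrbs1 for Irf8 (0.93, 0.83).

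Library totals were 11577295 to 15274421 counts in saline and 12928007 to 15332121 in LPS. Microglial markers led the sorted cells in both groups. All 12 were tested, 8 were lower in LPS and none higher, beside 22.5% lower and 22.4% higher over all tested genes. P2ry12, a purinergic receptor gene, was at 21590 ± 3362 CPM in saline and 2419 ± 1024 CPM in LPS. Summed neuronal markers reached at most 8.81 CPM in any mouse, and those of T and NK cells 3.11 CPM. Astrocyte markers, mostly Slc1a3, summed to 359 to 415 CPM in saline and 137 to 346 CPM in LPS. Oligodendrocyte markers summed to 103 to 129 CPM in saline and 90.2 to 118 CPM in LPS. Those of border-associated macrophages summed to 8.91 to 14.4 CPM in saline and 7.16 to 28.0 CPM in LPS. Of these 8 markers 2 were tested. Cbr2 rose from 0.74 to 10.99 CPM (edgeR adjusted p = 0.000125), while Mrc1, at 10.28 and 7.32 CPM, was not called. Cd163, too low to test, had 21 counts in saline and 1 in LPS.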

How the data were processed

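RNA of sorted cortical microglia was measured in 10 mice, 5 per group, 1 library each, from 5 ng of total RNA amplified with a SMARTer kit, per the labels' protocols. The authors deposited raw counts per gene, and the submitters' processing notes name featureCounts and the builds GRCm38 and mm10. The aligner, annotation and strand setting were not given in the sources used here. RPKM values deposited by the authors equalled each count scaled by a library factor and a gene factor, within a tolerance of 2%, for 100% of the values checked. These factors gave relative gene lengths. The last row of the count table, which names no gene and holds no counts, was left out (1 row).

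The count test was edgeR 4.0.16 under R 4.3.3 (TMM factors, filterByExpr, quasi-likelihood F test, Benjamini-Hochberg adjustment at 0.05, no covariate). Standard errors were taken over the libraries of each group from log2 CPM (prior count 2). Alternatives were RLE, upper-quartile and library-size scaling, no filter, a CPM filter, DESeq2 1.42.0, limma-voom (limma 3.58.1), mouse-number range as a term, removal of the gene-length trend, limma on log2(RPKM + 1) and log2(RPKM + 0.1), and each mouse left out. The tests were also run on simulated counts, but the outcome is not reported here and no result rests on it. Promoters are RefSeq windows on GRCm38.p6. Summaries used Python 3.11.15.

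The family members, gene lists and alternatives were chosen with earlier results of these data known. The rule for named genes took the 8 members, up to 4 called genes per pathway list by adjusted p and up to 2 in the opposite direction, the 2 most abundant genes of each marker list, the 3 genes most like each member, and genes within 5 kb of a member; the text leaves some of these out. Other genes named, such as defining markers at or near 0, Ccr2, Cd209a, Spi1, Tbk1, Traf6, Ikbkb, Psmb8 and Psmb9, were picked once their values were known. Some list members are counted but not reported here by name. Per the labels, each library stands for 1 animal. Depth was 11577295 to 15332121 counts per library, and the protocols name no molecular identifiers, so counting error alone understates the error. All pairs of libraries within a group differed beyond sampling noise (chi-square per degree of freedom at least 14.6).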

Additional observations from a re-analysis of the deposited data

How the results depend on the processing

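Over 22 alternatives, 5 or 6 of the 8 members were called, and 169 of 176 combinations of member and alternative kept their direction and their side of the threshold. Irf7, Irf1, Irf9, Irf3 and Irf4 passed in all 22, with log2 fold changes of 3.81 to 4.30, 0.996 to 1.18, 0.95 to 1.10, 0.50 to 0.73 and -1.29 to -0.64. The largest adjusted p over them was 0.008, for Irf4. Irf5 passed in none (log2 -0.21 to -0.08, adjusted p 0.182 to 0.61). Irf2, never called, turned negative with scaling by library size only (-0.049), with limma-voom (-0.013) and with mouse-number range as a term (-0.045). It ranged from -0.15 to 0.13 when 1 mouse was left out, and was negative without saline mouse 4 (-0.011) and without LPS mouse 4 (-0.15). Irf8 passed with library size only (-0.37, adjusted p = 0.0389) and without LPS mouse 2 (-0.36, adjusted p = 0.0353). It ranged from -0.36 to -0.24 when 1 mouse was left out. The cause was not tested. Over all genes, 4988 (length trend removed) to 7166 (without LPS mouse 4) were called, beside 6203 as reported. Calls split into 3093 higher and 3110 lower, and with library size only into 2656 and 3482, where the median log2 fold change of all genes was -0.08. The 23 response-element genes all passed as reported, but Ifit2 lost its call in 12 alternatives and Cxcl10 in limma-voom (adjusted p = 0.0699).

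No paired analysis was possible because each mouse number in the labels belongs to 1 animal and the groups share no number. Irf4 rests on few counts, and a change smaller than the spread between mice could not be seen for Irf2, Irf5 and Irf8. The RPKM scale with a pseudocount of 1 understates changes of low genes such as Irf4. Relative lengths covered 13199 genes.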
